A study of Homo sapiens with 4 samples.

Results

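A set of 10 genes of 4 small protein families were followed across human embryonic stem cells with and without SLC35F2. They were the beta-thymosins TMSB4X, TMSB10 and TMSB15A, the galectins LGALS1 and LGALS3, the S100 genes S100A4, S100A10 and S100A11, and the annexins ANXA1 and ANXA2. TMSB4X and LGALS1 were chosen by their measured read counts, which were high in 1 library, KO 2, and the other 8 were taken by name as their relatives, to ask whether they share that pattern. The 10 genes stand among 60483 gene identifiers in the files, of which 19027 had enough reads to be tested, all 10 of them included.

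Messenger RNA was sequenced from H9 (WA09), an established line of human embryonic stem cells. The groups were H9 cells with a control genotype (control 1 and control 2) and H9 cells with SLC35F2 knocked out (KO 1 and KO 2). The SLC35F2 protein is a membrane transporter of the solute carrier class. No treatment is named in the labels. Nothing there tells whether 2 libraries with 1 genotype are distinct cultures or distinct clones. The p-values thus rest on a spread between samples of unknown source, which may not be that between independent cultures. The design's only comparison, KO against control, asks how the RNA of these cells differs after loss of SLC35F2.

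Members of these families act at the cell cortex or the cell surface. Beta-thymosins are short peptides that bind single actin molecules and hold them in reserve, so that they set how much actin is free to form filaments. S100 proteins are small dimeric calcium sensors that act by binding partners. Annexins bind acidic membrane lipids when calcium rises, and annexin A2 forms a complex with S100A10. Galectins bind beta-galactoside sugars on glycoproteins, both outside and inside the cell. TMSB4X, LGALS1, several S100 genes and several annexins are abundant in many mesenchymal and other differentiated cells.

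Libraries held 27824693 to 37978705 reads assigned to genes. SLC35F2 itself was at 41.1 and 27.1 CPM (a gene's reads scaled to library depth, with TMM factors) in the controls and at 12.1 and 9.65 CPM in KO 1 and KO 2. Its log2 fold change of KO against control was -1.65 (edgeR adjusted p = 0.580). Even the knocked-out gene thus did not pass the test, and a gene that does not pass may still differ. KO 2 stood apart from the other libraries. It was at least 2-fold above each of the other 3 for 351 genes (1.84% of those tested) and at least 2-fold below each of them for 527 (2.77%). The corresponding shares were 0.105% and 0.857% for KO 1, 0.0263% and 0.0105% for control 1, and 1.13% and 0.0473% for control 2. KO 2 also had the smallest share of reads outside annotated features, 4.59% against 7.41% to 10.8% in the others. All 10 marker genes of pluripotent cells had enough reads to be tested, with a summed level of 6027 CPM in KO 2 and 8290 to 8818 CPM in the other 3.

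Promoter windows, from 250 bases before to 50 bases after the annotated start, were read from RefSeq sequences (GRCh38.p14) for 9 of the 10 genes, all but LGALS1. Of these, 4 are printed 5′ to 3′ because their genes showed different patterns across the libraries: TMSB4X was high in KO 2 alone, ANXA1 and ANXA2 were lowest in KO 1 and highest in KO 2, and S100A10 was lower in both KO libraries. Capitals mark a TATA box (TATAAA), a GC box (GGGCGG or its reverse complement CCGCCC) or an AP-1 site (TGANTCA).
TMSB4X, chrX:12974860-12975159, plus strand: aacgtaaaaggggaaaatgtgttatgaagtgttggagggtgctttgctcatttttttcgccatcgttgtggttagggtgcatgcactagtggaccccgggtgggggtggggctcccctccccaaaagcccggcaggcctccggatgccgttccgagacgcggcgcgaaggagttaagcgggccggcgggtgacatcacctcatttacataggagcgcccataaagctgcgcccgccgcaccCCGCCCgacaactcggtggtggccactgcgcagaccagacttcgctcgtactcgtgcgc
ANXA1, chr9:73151615-73151914, plus strand: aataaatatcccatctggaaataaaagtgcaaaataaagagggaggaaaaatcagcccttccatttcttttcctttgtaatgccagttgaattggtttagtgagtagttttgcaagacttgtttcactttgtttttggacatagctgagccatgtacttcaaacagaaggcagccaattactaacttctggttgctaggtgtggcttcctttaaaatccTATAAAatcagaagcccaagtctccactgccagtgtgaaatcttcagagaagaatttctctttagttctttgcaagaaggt
ANXA2, chr15:60397937-60398236, minus strand: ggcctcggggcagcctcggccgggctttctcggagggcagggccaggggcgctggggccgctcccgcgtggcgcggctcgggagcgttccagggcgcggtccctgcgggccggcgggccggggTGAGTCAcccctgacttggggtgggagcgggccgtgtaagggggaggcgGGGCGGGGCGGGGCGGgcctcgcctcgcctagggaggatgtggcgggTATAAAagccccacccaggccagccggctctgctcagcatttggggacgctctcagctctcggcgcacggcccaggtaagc
S100A10, chr1:151993810-151994109, minus strand: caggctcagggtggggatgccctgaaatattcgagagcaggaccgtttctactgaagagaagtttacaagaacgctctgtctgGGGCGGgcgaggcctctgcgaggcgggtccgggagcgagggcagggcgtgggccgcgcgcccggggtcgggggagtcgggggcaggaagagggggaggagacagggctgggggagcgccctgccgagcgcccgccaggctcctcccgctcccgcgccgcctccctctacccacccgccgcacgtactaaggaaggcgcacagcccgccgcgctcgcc

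The promoters of these relatives differed in composition. The ANXA1 window held 0 CpG dinucleotides and 37.7% G and C, whereas the other 8 windows held 8 (S100A4) to 39 (LGALS3) CpG and 60.7% to 78.3% G and C. Over all 35116 windows in the table the medians were 14 CpG and 58.7%. TATAAA, searched on both strands, was found in 3 of the 9 windows, those of S100A4, ANXA1 and ANXA2, in each at position -31 from the start, and in 11.5% of all windows. The GC box was in 7 of the 9 windows, with 1 copy in TMSB4X, S100A10 and S100A11 and 5 copies in TMSB10, and in 45.0% of all windows. An AP-1 site was found in the ANXA2 window alone, at -127, and in 7.71% of all windows. The CArG box, bound by serum response factor (1.29% of all windows), and GGAATG, bound by TEAD factors (14%), were in none of the 9. Copies of the GC box can overlap: each of the 3 in ANXA2 shares 1 base with the next.

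TMSB4X, which encodes thymosin beta-4, the main actin-holding peptide of many cells, was by far highest in KO 2. The gene (ENSG00000205542.9, chromosome X, 12975108 to 12977227, plus strand, GRCh38) stood at 582 and 612 CPM in controls 1 and 2, against 638 in KO 1 and 3155 in KO 2. The first 3 values lay close together, and KO 2 stood 4.95-fold above KO 1 and 5.29-fold above the control mean. In reads these were 21947, 21742, 17530 and 107885, so that TMSB4X alone took 0.292% of the assigned reads of KO 2 and 0.0578% to 0.0671% in the other libraries. Processed and other pseudogene copies of TMSB4X are scattered over the genome, and the files list reads that align to several places apart from the gene counts. The 6 annotated copies together had 60, 49, 48 and 250 reads in the same order, following their parent at a far lower level. Because this pattern chose the gene, its values are a description without a test: the fitted log2 fold change of KO against control was 1.67 with all libraries and 0.097 without KO 2.

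LGALS1, which encodes galectin-1, a secreted and intracellular sugar-binding protein typical of mesenchymal cells, showed the largest ratio of the 10 genes between KO 2 and the control mean. The gene (ENSG00000100097.10, chromosome 22, 37675608 to 37679806, plus strand) stood at 6.97 and 12.8 CPM in controls 1 and 2, against 6.07 in KO 1 and 160 in KO 2. KO 2 was 26.4-fold above KO 1 and 16.3-fold above the control mean, while KO 1 lay below both controls. The underlying reads were 263, 454, 167 and 5487. As for TMSB4X the pattern chose the gene and no test is given: the fitted log2 fold change was 3.08 with all libraries and -0.70 without KO 2, so that its sign rests on KO 2.

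**Figure D1:**
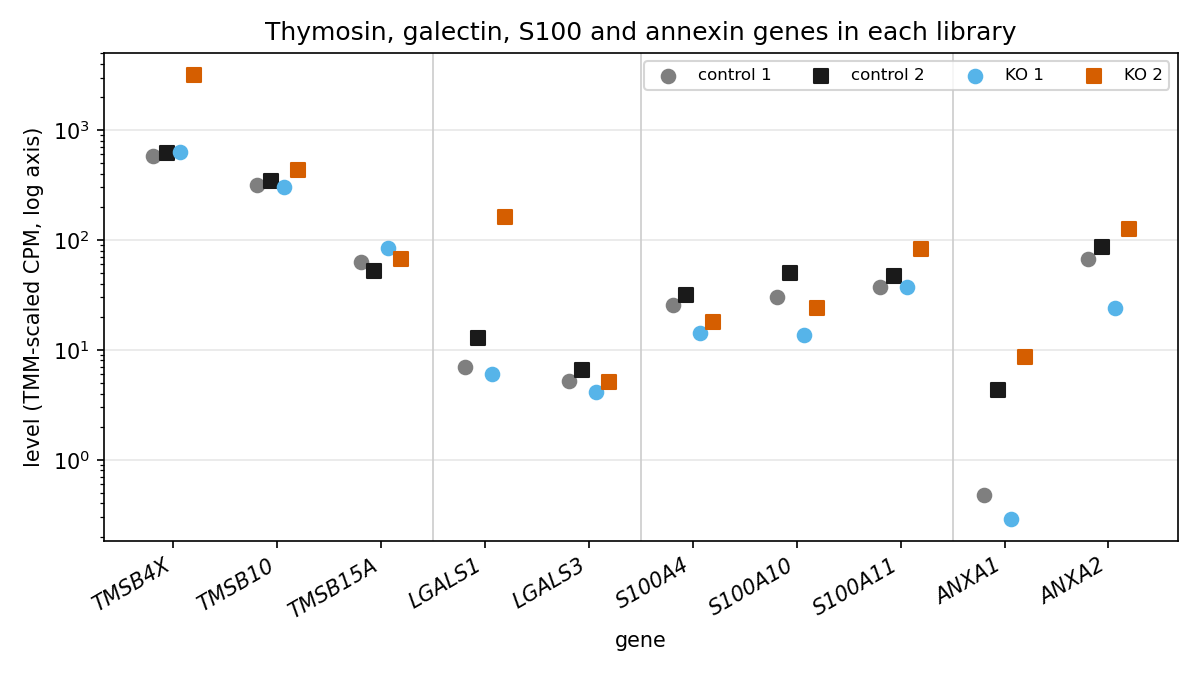
Level of each of the 10 genes in the 4 libraries, as TMM-scaled CPM on a log axis, 1 point per library; vertical lines separate the families. TMSB4X (3155 CPM) and LGALS1 (160 CPM) in KO 2 lie far above their other 3 libraries, while S100A4 and S100A10 are below the 2 controls in each KO library.

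The other beta-thymosins did not share the excess of TMSB4X. TMSB10, which encodes thymosin beta-10, an actin-binding peptide like thymosin beta-4 (ENSG00000034510.5, chromosome 2, 84905625 to 84906675, plus strand), had 319 and 342 CPM in the controls, against 300.1 in KO 1 and 435 in KO 2. KO 2 was the highest library and KO 1 the lowest, and the groups overlapped (log2 fold change 0.15 ± 0.28 (SE), 95% interval -0.48 to 0.78, edgeR adjusted p = 0.997). TRABD2A, which overlaps TMSB10 on the opposite strand, had 408, 504, 177 and 146 reads in control 1, control 2, KO 1 and KO 2, against 8251 to 14862 for TMSB10, and as the strand setting of the counting is not known, reads of the overlap may not be told apart. TMSB15A, another family gene, which lies on the X chromosome as TMSB4X does (102513676 to 102516784, minus strand), had 62.8 and 52.7 CPM in the controls, against 83.5 in KO 1 and 67.6 in KO 2. Both KO libraries were above both controls, KO 1 more than KO 2, but the difference did not pass the test (0.39 ± 0.28 (SE), interval -0.24 to 1.01, edgeR adjusted p = 0.997). TMSB15B, a close copy of TMSB15A whose reads may be split with it, was at 1.35 to 2.6 CPM. Per length of merged exons, TMSB10 was the most abundant of the 10 genes in 3 libraries, at 643, 690 and 605 CPM per kilobase of exons in control 1, control 2 and KO 1, against 341, 359 and 374 for TMSB4X. In KO 2 the order was the opposite, with 1851 for TMSB4X and 876 for TMSB10.

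LGALS3 (ENSG00000131981.14, chromosome 14, 55124110 to 55145413, plus strand), which encodes galectin-3, the galectin with a long flexible tail before its sugar-binding domain, was low and did not follow LGALS1. It had 5.17 and 6.50 CPM in the controls, against 4.15 in KO 1 and 5.12 in KO 2. The KO libraries lay just below the controls, with KO 2 almost level with control 1, and the difference did not pass the test (-0.33 ± 0.45 (SE), interval -1.34 to 0.69, edgeR adjusted p = 0.997). Of the other galectins, 6 of 14 had enough reads to be tested and 0 were called by edgeR, against 0.0263% of all genes tested. LGALSL, a galectin-like gene, had 21.4 and 25.2 CPM in the controls, against 24.9 in KO 1 and 49.8 in KO 2, so that it was nearly 2-fold above each other library in KO 2. LGALS8 had 13.8, 21.0, 11.5 and 16.8 CPM in control 1, control 2, KO 1 and KO 2. LGALS12 and LGALS9 were under 1.6 CPM in every library.

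The 3 S100 genes went different ways. S100A4, which encodes a calcium-binding protein associated with cell motility, had 25.5 and 31.4 CPM in the controls, against 14.4 in KO 1 and 18 in KO 2. S100A10, the S100 protein that binds annexin A2 and, unlike its relatives, does not need calcium to do so, had 30.4 and 49.5 CPM in the controls, against 13.6 in KO 1 and 23.8 in KO 2. Both genes were below the 2 controls in each KO library, with log2 fold changes of -0.81 ± 0.32 (SE, interval -1.55 to -0.08) and -1.09 ± 0.39 (SE, interval -1.97 to -0.21). Their unadjusted p in edgeR's model across all genes was 0.0337 and 0.0203, and the adjusted p was 0.997 for both. S100A11, which binds annexins in the presence of calcium, had 37.7 and 46.7 CPM in the controls, against 37.6 in KO 1 and 83.5 in KO 2. It was 1.98-fold above the control mean in KO 2, whereas KO 1 was level with control 1 (0.52 ± 0.39 (SE), interval -0.36 to 1.40, edgeR adjusted p = 0.997).

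These S100 genes lie near each other on the long arm of chromosome 1. S100A10 (151982915 to 151994390) and S100A11 (152032506 to 152047907) are neighbours among the S100 genes, both on the minus strand, and S100A4 (153543613 to 153550136) lies further along in the main S100 cluster. Of these neighbours, S100A10 was lower in KO 2 than in both controls and S100A11 higher. S100A3 overlaps the gene body of S100A4 on the same strand and had 1 to 11 reads per library. The files list reads that match more than 1 gene apart from the gene counts.

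ANXA1 and ANXA2 varied more within the groups than between them. ANXA1 (ENSG00000135046.12, chromosome 9, 73151757 to 73170393, plus strand), which encodes annexin A1, known from the resolution of inflammation, stood at 0.477 and 4.28 CPM in controls 1 and 2, against 0.291 in KO 1 and 8.69 in KO 2. The level rested on 18, 152, 8 and 297 reads, and the 8 reads of KO 1 have an exact Poisson interval of 3.45 to 15.8, which covers counting error only. Control 2 and KO 2 were both far above control 1 and KO 1, so that the groups overlapped widely (log2 fold change 0.97 ± 1.27 (SE), interval -2.05 to 4.0, edgeR adjusted p = 0.997). ANXA2 (ENSG00000182718.15, chromosome 15, 60347134 to 60402883, minus strand), the binding partner of S100A10, had 67.3 and 86.7 CPM in the controls, against 24.0 in KO 1 and 126 in KO 2. KO 1 lay below both controls and KO 2 above both, 5.26-fold apart, and the fitted difference was near 0 (-0.03 ± 0.66 (SE), interval -1.58 to 1.51, edgeR adjusted p = 0.997). S100A10 and ANXA2 were thus both lowest in KO 1, but in KO 2 S100A10 was below both controls and ANXA2 above both. The pseudogenes of ANXA2 had 6 to 25 reads in all per library.

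Over all genes edgeR's quasi-likelihood test with Benjamini-Hochberg adjustment called 5 of 19027 (0.0263%) at an adjusted p under 0.05, and it called 0 of the 10. Of the 8 relatives, 2 (S100A4 and S100A10) had an unadjusted p under 0.05, against 4.06% of all genes tested, and 0 of the 10 were called by DESeq2 (0.273% of all genes), by limma-voom (0 genes in all) or with the replicate number as a block (0.399%). The median log2 fold change was 0.059 over the 8 relatives and 0.029 over all genes tested. Of the 8, 1 (TMSB15A) was above the 2 controls in each KO library and 3 (LGALS3, S100A4 and S100A10) were lower, while 4 overlapped. Among all genes tested 15.8% were higher and 16.3% lower in this way.

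The pattern that chose TMSB4X and LGALS1, a level in KO 2 at least 2-fold above each of the other libraries with 0.5 CPM added to every value, was found in 0 of the 8 relatives, against 1.84% of all genes tested and 0.722% of the 4293 genes averaging 50 CPM or more. KO 2 is part of that average, so genes high in KO 2 alone can reach it. Among the relatives only TMSB10, TMSB15A, S100A11 and ANXA2 averaged 50 CPM or more. That ANXA1 did not pass rests on the added constant: its levels of 8.69 CPM in KO 2 and 4.28 CPM in control 2 are slightly over 2-fold apart without it. ANXA1 passed with a constant of 0.1 CPM (2.42% of all genes), with quantile normalisation (1.98%) and with counts thinned to the smallest library (1.85%). On the log2(CPM + 0.5) scale KO 2 exceeded the next library by 3.60 for LGALS1 and 2.31 for TMSB4X. ANXA1 (0.94) and S100A11 (0.83) were just below the limit of 1, followed by ANXA2 (0.54) and TMSB10 (0.34). With a limit of 1.5-fold ANXA1 and S100A11 also passed, as 6.75% of all genes did, and without control 2 among the libraries compared they passed the 2-fold limit, as 4.92% of all genes did. KO 2 was the highest library for 4 of the 8 relatives (33.4% of all genes tested), and KO 1 was the lowest for 7 of the 8 (24.8%).

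The annexins gave opposite signs when each KO library alone was set against the controls. Without KO 1, ANXA1 was higher (log2 fold change 1.90, edgeR adjusted p = 0.00927), and it was the 1 relative of 8 called, against 2.35% of all genes called higher in that fit. S100A11 (1.0, edgeR adjusted p = 0.0635) and ANXA2 (0.73, edgeR adjusted p = 0.236) were not called there. Without KO 2, ANXA2 (-1.68, edgeR adjusted p = 0.0025) and S100A10 (-1.56, edgeR adjusted p = 0.0129) were lower, 2 of the 8 relatives against 0.843% of all genes called lower, while ANXA1 had -3.00 (edgeR adjusted p = 0.119). The lone KO library is assumed in these fits to vary as the controls do, and the controls themselves differed widely for ANXA1. S100A4 kept its direction with either KO library, at -0.65 without KO 1 (edgeR adjusted p = 0.389) and -0.98 without KO 2 (edgeR adjusted p = 0.414). The signs of TMSB10, S100A11, ANXA1 and ANXA2 differed between the KO libraries, and those of TMSB15A, LGALS3, S100A4 and S100A10 did not.

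**Figure D2:**
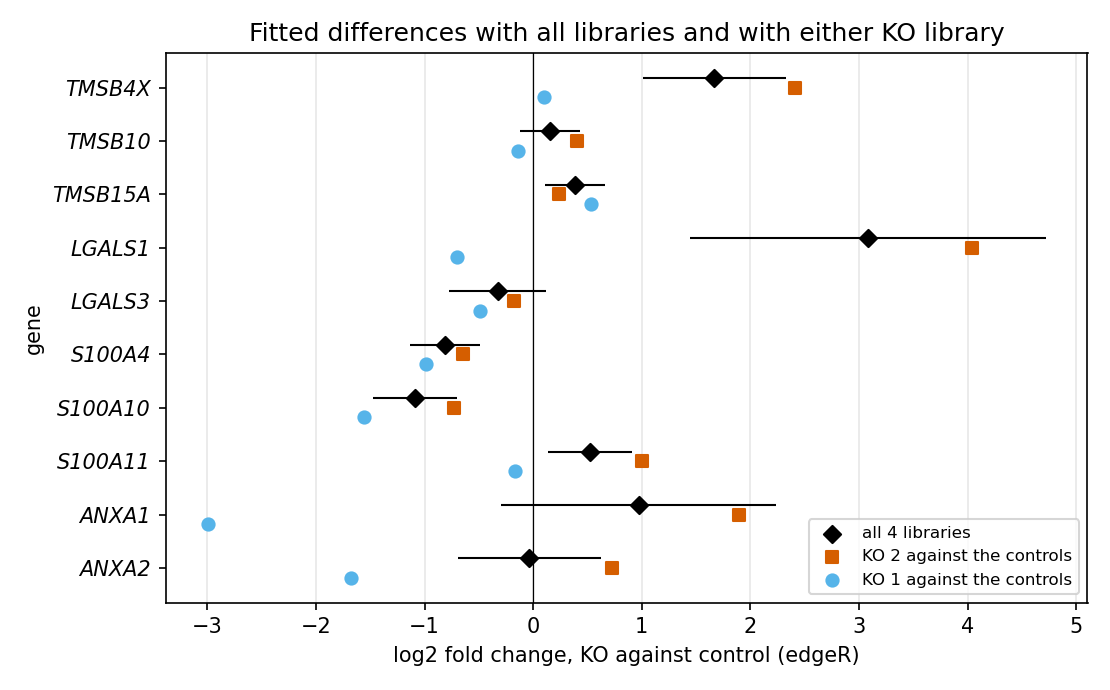
Log2 fold change of KO against control from edgeR for each of the 10 genes with all 4 libraries (diamonds, with the SE as a line), with KO 2 as the only KO library (squares) and with KO 1 as the only KO library (circles). For TMSB4X, LGALS1, S100A11, ANXA1 and ANXA2 the square lies well to the right of the circle, and for TMSB10, LGALS1, S100A11, ANXA1 and ANXA2 they lie on opposite sides of 0.

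The difference between the KO libraries ran alongside a difference between the controls, which was smaller in the median but not for every gene. KO 2 was above KO 1 for 7 of the 8 relatives (50% of all genes tested), all but TMSB15A, by a median of 0.66 in log2(CPM + 0.5). Control 2 was above control 1 for the same 7 (51.0% of all genes tested), by a median of 0.31. In LGALS3, S100A4 and S100A10 it was about as large as that between the KO libraries (0.31 against 0.27, 0.30 against 0.32 and 0.69 against 0.79). For ANXA1 the control difference was itself large, 2.29 against 3.54 between the KO libraries. For TMSB4X it was 0.073 against 2.31, and for LGALS1 0.83 against 4.61.

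**Figure D3:**
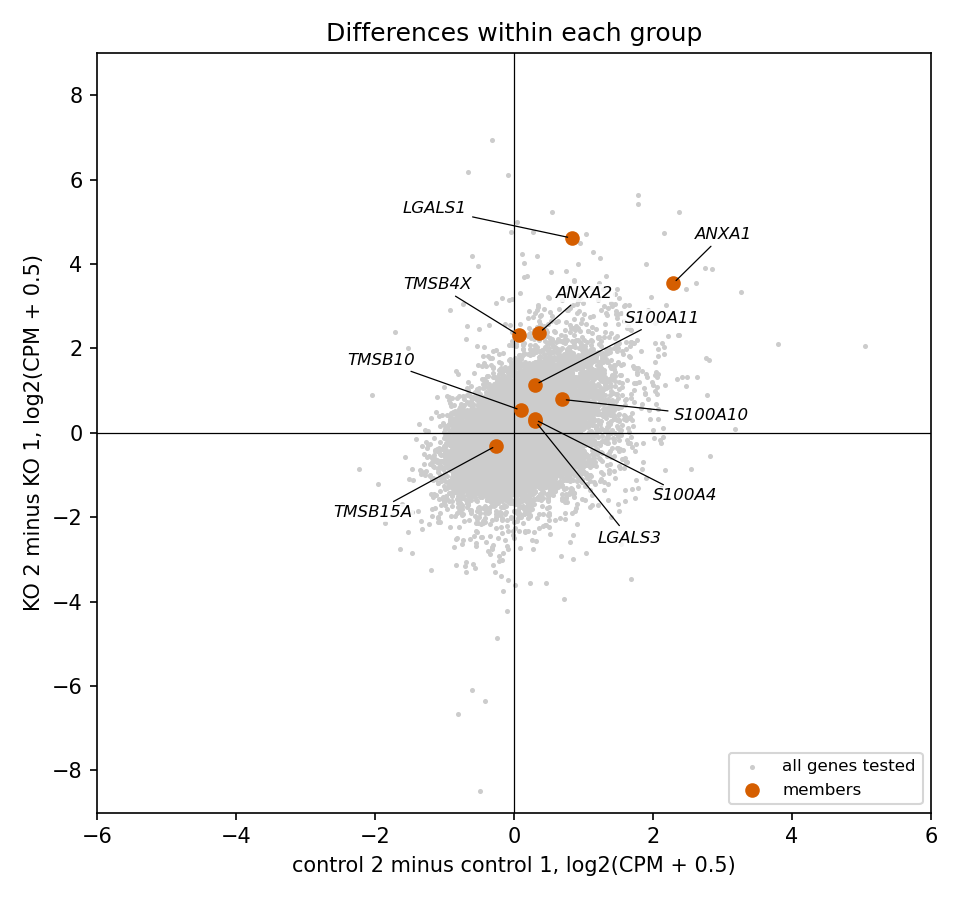
Difference between the KO libraries (vertical axis) against the difference between the controls (horizontal axis), both in log2(CPM + 0.5), for the 10 genes (large points) and all 19027 genes tested (small grey points). Of the 10 genes, 9 lie above and to the right of 0, TMSB4X with almost no difference between controls and ANXA1 with a large one.

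Of 45 further family genes in the lists, 20 had enough reads to be tested. None of them was called by edgeR, DESeq2 or limma-voom, against 0.0263%, 0.273% and 0 of all genes tested. In edgeR 1 (S100B, under 0.71 CPM in every library) had an unadjusted p under 0.05, against 4.06% of all genes tested. Of the 20, 2 were higher and 2 lower in both KO libraries (against 15.8% and 16.3%), with a median log2 fold change of -0.030. KO 2 was above KO 1 for 16 of them and control 2 above control 1 for 16. Both replicate 2 libraries were above both replicate 1 libraries for 11 of the 20 and for 4 of the 8 relatives, against 23.2% of all genes tested. No gene of the 20 was at least 2-fold above each other library in KO 2. Among annexins KO 2 was above KO 1 for 9 of the 9 tested genes, members included, and highest of all libraries for 7. ANXA5, the most abundant annexin, had 252, 282, 235 and 327 CPM in control 1, control 2, KO 1 and KO 2. ANXA6 had 111, 133, 89.9 and 173 CPM, ANXA7 had 69.1, 61.0, 66.0 and 97.5 CPM, and ANXA11 had 62.7, 59.8, 53.2 and 60.3 CPM. The leading S100 genes beside the 3 described were S100A13, at 23.5, 25.9, 26.2 and 29.2 CPM, and S100A16, at 15.2, 16.8, 12.3 and 22.6 CPM. S100A1 was at 1.61 to 2.84 CPM.

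**Figure D4:**
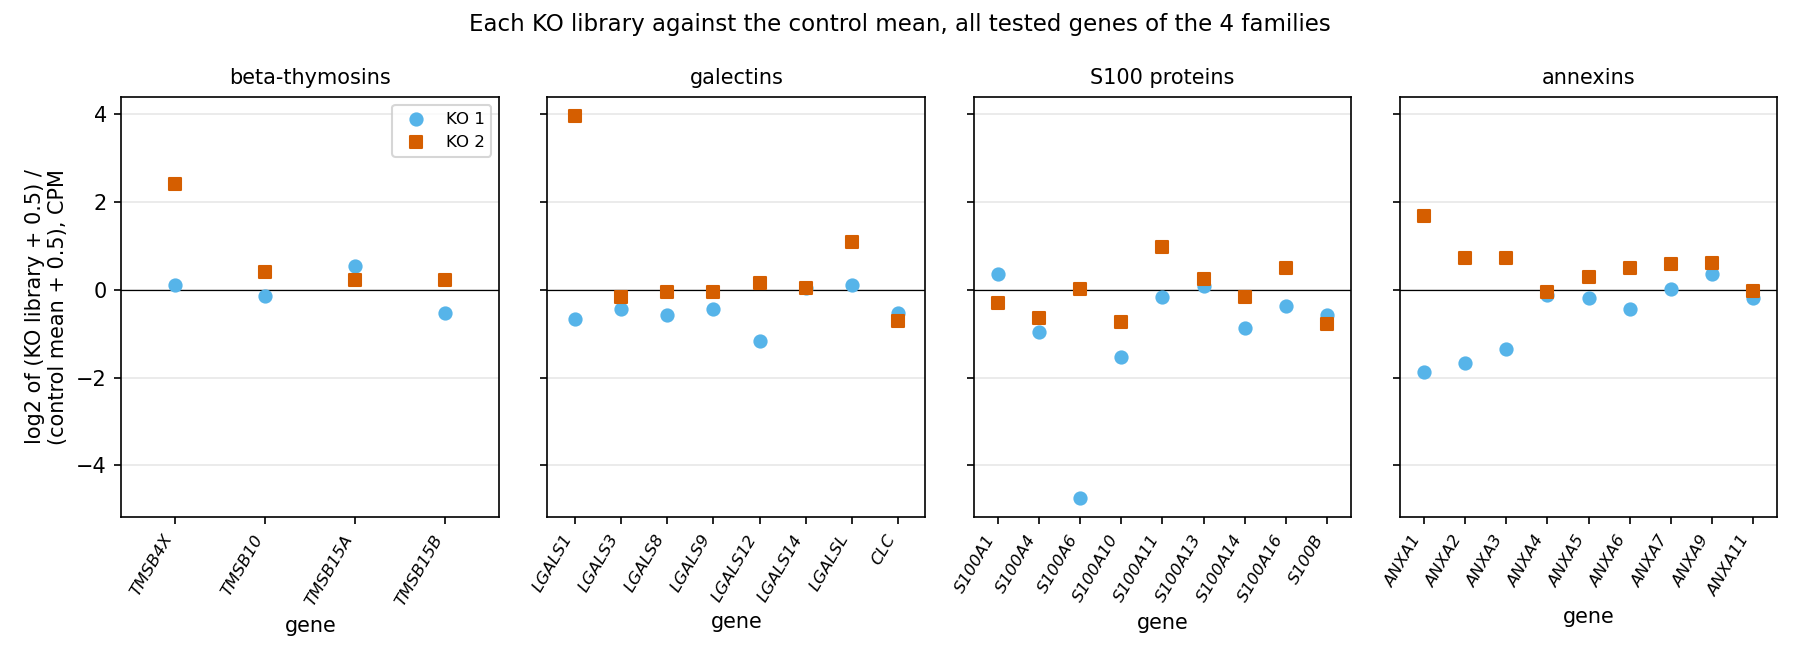
Log2 ratio of each KO library to the control mean (0.5 CPM added) for the 30 tested genes of the 4 families, 1 circle for KO 1 and 1 square for KO 2 per gene. LGALS1 and TMSB4X have the highest squares, all 9 annexins have the square above the circle, and S100A6 has the lowest circle.

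Among actin and its regulators, the partners of the thymosins, KO 2 was the highest library for 31 of 45 genes (33.4% of all genes tested) and for 17 of 45 with library size as the only scaling (24.4%). All 45 were tested, and 0 were called by edgeR, DESeq2 or limma-voom (0.0263%, 0.273% and 0 of all genes tested). In edgeR 0 had an unadjusted p under 0.05 (4.06% of all genes tested). Of the 45, 15 were higher and 1 was lower in both KO libraries (33.3% and 2.22%, against 15.8% and 16.3% of all genes), and the median log2 fold change was 0.18 against 0.029. With library size as the only scaling 11 were higher and 3 lower, against 10.2% and 21.3% of all genes, and the median was 0.044. The summed level was 18641, 18767 and 18928 CPM in control 1, control 2 and KO 1 and 23821 CPM in KO 2. ACTB, cytoplasmic beta-actin, had 3887 and 3552 CPM in the controls, against 4015 in KO 1 and 4973 in KO 2, and ACTG1, gamma-actin, had 2738, 3267, 2774 and 5072 CPM in the same order. FLNA, which crosslinks filaments, had 1965, 2099, 2319 and 2343 CPM, and MYL6, a myosin light chain, had 847, 675, 925 and 1064 CPM. One gene of the list, CAP2, which binds actin monomers as thymosins do, was at least 2-fold above each other library in KO 2, with 10.6, 11.4, 12.1 and 34.1 CPM. CAP2 was singled out after its values were seen.

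Among 20 known partners of annexins, S100 proteins and galectins, 17 were tested. None of them was called by edgeR, DESeq2 or limma-voom, against 0.0263%, 0.273% and 0 of all genes tested. An unadjusted p under 0.05 in edgeR was found for 1 (MCAM), against 4.06% of all genes tested. With the replicate number as a block 1 of the 17 was called, against 0.399% of all genes. Of the 17, 0 were higher and 4 lower in both KO libraries (against 15.8% and 16.3% of all genes), with a median log2 fold change of 0.10, and -0.063 with library size as the only scaling. BSG, a surface glycoprotein, stood at 756 and 602 CPM in the controls against 748 in KO 1 and 1134 in KO 2. MYH9, the non-muscle myosin heavy chain bound by S100A4, had 602, 767, 673 and 799 CPM in control 1, control 2, KO 1 and KO 2. ITGB1, the integrin beta-1 subunit, stood at 356 and 352 CPM in the controls against 253 in KO 1 and 338 in KO 2, and LAMP1, a lysosomal membrane protein, had 230, 135, 223 and 194 CPM. The formyl peptide receptors FPR1, FPR2 and FPR3, through which annexin A1 signals, had 6 reads or fewer in every library.

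The genes whose profile over the 4 libraries was nearest to those of TMSB4X and LGALS1 came from outside the families. The distance was Euclidean, between log2(CPM + 0.5) values centred on each gene's mean, over the 9700 protein-coding genes averaging 10 CPM or more. EPHA4, an ephrin receptor, was nearest to TMSB4X (distance 0.387), with 11, 15.5, 14.5 and 58.7 CPM in control 1, control 2, KO 1 and KO 2. UVRAG, FN3K, NPY1R and RHOU followed, at 0.459 to 0.606. Nearest to LGALS1 was GREB1L (1.02), with 3.63, 7.49, 1.45 and 43.7 CPM, followed by VGF, INPP5F, CYP26A1 and NDRG1 (1.03 to 1.30). LGALS1 and TMSB4X were 1.78 apart. TMSB4X was the nearest gene but 15 to LGALS1, while LGALS1 ranked 2642 from TMSB4X. Of the relatives S100A11 ranked 207 from TMSB4X, and ANXA2 and S100A11 ranked 220 and 283 from LGALS1. ANXA1 and LGALS3 averaged under 10 CPM and were not ranked. GREB1L, UVRAG, FN3K, NPY1R, RHOU, VGF, NDRG1 and LGALS1 itself reached that limit only through their level in KO 2. The limit thus let in genes that are high in KO 2 and low elsewhere. With 4 libraries these ranks describe the profiles and carry no test.

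On the chromosomes, TMSB4X had 2 tested protein-coding genes within 500 kb, PRPS2 and FRMPD4, and for neither was KO 2 the highest library. PRPS2, a nucleotide synthesis enzyme, stood at 40.1 and 22.3 CPM in the controls, which enclosed both KO values of 34.3 and 29.8. LGALS1 had 23 such neighbours, of which 2, RAC2 and ELFN2, were at least 2-fold above each other library in KO 2, at 4.30 and 11.4 CPM. KO 2 was above the control mean for 18 of the 23, against 49.4% of all genes tested, with a median ratio of 1.36. The tested genes on either side of LGALS1, PDXP and NOL12, had their lowest levels in KO 2, at 2.31 and 5.94 CPM, against 2.70 to 4.66 CPM and 8.42 to 17.1 CPM in the other libraries. RAC2, ELFN2, PDXP and NOL12 were singled out after their values were seen.

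Markers of other cell types were read beside these genes, since thymosin beta-4 and galectin-1 RNA is abundant in mesenchymal cells. In bulk RNA, more cells of a type and more RNA per cell cannot be told apart. Of 12 fibroblast and stromal markers 9 had enough reads to be tested, with a summed level of 576 and 933 CPM in the controls, against 598 in KO 1 and 1156 in KO 2. KO 2 was above the control mean for 5 of the 9, and its higher sum came mostly from COL1A1. COL1A1, a fibrillar collagen chain, had 128, 300.4, 46.8 and 552 CPM in control 1, control 2, KO 1 and KO 2, in the same order of libraries as ANXA2. COL3A1 was the 1 marker of the 9 at least 2-fold above each other library in KO 2. It had 1.33, 0.0563, 0.291 and 3.66 CPM in control 1, control 2, KO 1 and KO 2. POSTN and COL6A3 were below both controls in KO 2, at 0.468 and 2.31 CPM. The platelet-derived growth factor receptor PDGFRA was lowest in KO 2, at 0.497 CPM against 2.36 to 4.59 CPM. The untested DCN, FAP and LUM had 5 reads or fewer in every library, controls included. Smooth muscle markers summed to 94.5, 279, 64.1 and 211 CPM, mostly from TAGLN, and were highest in control 2. All 5 of them were lowest in KO 1. Of the 8 endothelial and blood markers 4 were tested, with sums of 22.8, 20.8, 9.56 and 5.50 CPM that came mostly from TEK (20.5, 18.5, 7.31 and 2.52 CPM). CDH5 (1.84 CPM) and RUNX1 (0.731 CPM) were highest in KO 2 and CD34 (0.409 CPM) lowest. Of the untested markers PECAM1 had 2, 4, 0 and 10 reads and PTPRC 10, 2, 2 and 0. Trophoblast and amnion markers (6 of 9 tested) summed to 22.8, 44.0, 20.6 and 27.8 CPM and endoderm markers (3 of 5 tested) to 3.63 to 6.0 CPM. Neural markers (6 of 6 tested) summed to 514, 817, 569 and 956 CPM, mostly from NES. KO 2 was above the control mean for 2 of the 6, NES and SOX1, with a median ratio of 0.81. PAX6 and DCX were lowest in KO 2. Of the 10 pluripotency markers KO 2 was above the control mean for 2, SOX2 (365, 314, 327 and 427 CPM) and LIN28A (1691, 1760, 2138 and 1824 CPM), against 49.4% of all genes tested. All the other markers of that list were lowest in KO 2, by differing amounts. These were NANOG (61.2, 64.7, 46.2 and 19.1 CPM), L1TD1 (1156, 1169, 1068 and 496 CPM), POU5F1 (282, 306, 401 and 227 CPM), DNMT3B (1743, 1302, 1550 and 662 CPM), TDGF1, DPPA4, PODXL and SALL4. For SALL4 the values were close, at 155, 182, 172 and 152 CPM. The part of these cell types in the levels of the 10 genes was not tested.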

How the data were processed

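Polyadenylated RNA was sequenced in 4 libraries, grouped by their titles. A TruSeq Stranded mRNA preparation was used, per the labels. The submitters' processing notes list HTSeq 0.11.0, STAR 2.6.0a, cutadapt 1.8.1 and FastQC 0.11.7, with GRCh38 (hg38) as the genome. For the annotation release and the strand option, the setting is not given in the sources used here. The authors deposited raw read counts for each gene: although the labels mention quantile normalisation, the values are whole and sum to unequal totals. Between 14.4% and 20.3% of alignments were given to no single gene and left out. Gene names, positions and exon lengths came from GENCODE 29, which held 93.8% of the identifiers.

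All genes were fitted together with edgeR 4.0.16 (filterByExpr minimum count 10, TMM factors, robust quasi-likelihood F test, two-sided, R 4.3.3). P-values were adjusted over all 19027 genes by Benjamini-Hochberg with a threshold of 0.05. CPM values use the TMM factors. Intervals are 95% intervals from the model's degrees of freedom, and the SE is the log2 fold change over the square root of F. DESeq2 1.42.0, limma 3.58.1 (voom, and quantile normalisation), other scaling factors and filters, thinned counts, the legacy fit, the replicate number as a block and each library left out in turn were alternatives. The 10 genes and the lists (4 families, actin, partners, 7 sets of cell type markers) were chosen with earlier results of these data known. Beside the 10 genes and SLC35F2, the 4 most abundant tested genes of each family and partner list were named, any called gene, and the 5 genes nearest in profile to TMSB4X and LGALS1. Others named were chosen after their values were seen. A result for 1 gene of the partner list is not reported here.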

Additional observations from a re-analysis of the deposited data

How the results depend on the processing

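Over all genes the count of calls depended on the tool: 5 with edgeR as described, 52 with DESeq2, 1 with the legacy quasi-likelihood fit and 8 with no filter on low counts. There were 0 calls with library size only, upper-quartile factors, limma-voom, quantile normalisation and a mean CPM of at least 1, with 787, 801, 692, 606 and 523 genes at an unadjusted p under 0.05. The replicate number as a block gave 76 calls over all genes and 0 among the 10 genes. Across genes the difference between replicates 2 and 1 in control correlated with that in KO (Pearson r = 0.366 over 19027 genes). No label ties the numbers to a shared day or culture, so they were not treated as pairs. Leaving out each library in turn gave 3 to 1096 calls over all genes, from 3 without control 2 to 1096 without KO 1, with 188 without KO 2. It gave 0 to 3 calls among the 10 genes and 0 to 4 among the 30 tested family genes. Without KO 1 these were ANXA1, LGALS1, TMSB4X and, in the families, LGALSL. Of these, LGALS1 and TMSB4X were chosen for their level in KO 2, so that their calls there follow from that choice and are no test. Without KO 2 they were ANXA2, S100A10 and, in the families, S100A6. No other alternative called any of the 10 genes. The number of the 10 genes at least 2-fold higher in KO 2 was 2, and 3 with quantile normalisation, thinned counts or a constant of 0.1 CPM, where ANXA1 was added. It was 4 with a limit of 1.5-fold, and 2 to 4 with 1 other library left out, an alternative chosen after seeing the data. Over the leave-one-out fits the log2 fold change ranged from -0.14 to 0.41 for TMSB10, -0.70 to 4.04 for LGALS1, -0.16 to 1.0 for S100A11, -3.00 to 3.25 for ANXA1 and -1.68 to 0.73 for ANXA2, so that each changed sign. TMSB10 also changed sign with quantile normalisation (-0.011). LGALS3, S100A4, S100A10, TMSB4X and TMSB15A kept their sign in all 15 alternatives. Over all genes the median change was 0.029 on the log2 scale, and -0.097 with library size as the only scaling. With 2 libraries a group, the causes of these changes were not tested.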

Other observations

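S100A6, the S100 gene next to S100A5 and S100A4 in the cluster on chromosome 1 (153534599 to 153536244), had 532 and 486 reads in the controls, 476 in KO 2 and a single read in KO 1. It was the only tested gene within 500 kb of S100A4 that was at least 2-fold below each other library in KO 1, a pattern of 0.857% of all genes tested. S100A4, on the same strand, had 395 reads in KO 1 and S100A16, further along the cluster, had 338.

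ANXA3, an annexin that was not among the 10 genes, had the same order of libraries as ANXA1 and ANXA2, at 17.9 and 39.1 CPM in controls 1 and 2, against 10.9 in KO 1 and 47.4 in KO 2 (log2 fold change 0.04, 95% interval -1.50 to 1.58). That order was not particular to these annexins: TMSB10, LGALS1, S100A11, S100A16, ANXA5 and ANXA6 had it as well. TAGLN, which encodes the actin-binding protein transgelin, had 72.8, 232, 49.4 and 172 CPM in control 1, control 2, KO 1 and KO 2, so that it too was lowest in KO 1, but it was highest in control 2. VIM, which encodes the intermediate filament protein vimentin and was in none of the marker lists, had 106, 146, 82.9 and 342 CPM in the same order. It was at least 2-fold above each other library in KO 2, as TMSB4X and LGALS1 were and as 1.84% of all genes tested were. S100A6 was named as 1 of the 4 most abundant other S100 genes, and ANXA3, TAGLN and VIM were singled out after their values were seen.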
